A study of Arabidopsis thaliana with 6 samples.

Results

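The genes described here are those whose array annotation names late embryogenesis abundant (LEA) proteins, measured in Arabidopsis roots after induction of the DOF transcription factor OBP4. Members were all loci of the deposited arrays whose annotation holds the words "late embryogenesis abundant", together with LEA7, which holds them too. The rule gave 37 of 32627 loci. It used no measured value. Of the 37, 27 name a LEA protein or domain in their own annotation, 8 are called "LEA protein-related", and 2 hold the term only through their best protein match.

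LEA proteins are small, very hydrophilic and mostly unstructured proteins that build up in seeds as they dry. In leaves and roots many of them accumulate under drought, salt, cold or abscisic acid, and several have been shown to protect enzymes or membranes from drying. Their seed expression depends on the regulators LEC1, LEC2, FUS3 and ABI3 and on the bZIP factor ABI5, while bZIP factors of the ABF group act on abscisic acid response elements in vegetative tissue.

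Root RNA came from 3 arrays of pER8::OBP4 seedlings and 3 arrays of pER8::GFP control seedlings. Both lines carry an estradiol-inducible transgene, and both received 10 µM estradiol for 8 h after 5 days of growth on medium without it, under 16 h of light. Each replicate came from plates of its own, per the labels. No roots without estradiol were analysed, so a difference between the lines that precedes induction and a response to OBP4 cannot be told apart at any gene below, and the labels do not say how many independent transgenic lines stand behind each construct. Signals are log2 values after RMA, a method that corrects background, normalizes arrays and combines the probes of a gene, and they compare one gene between arrays but not different genes with each other.

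OBP4 itself (AT5G60850) read 15.74, 15.83 and 15.86 in OBP4 roots, against 14.37, 14.78 and 14.48 in control roots. The values in OBP4 roots lay near the top of the scale, where differences are compressed. Of 12 genes listed as root markers, all had a mean signal of at least 9.71. In OBP4 roots 0 rose and 5 fell at limma's adjusted p under 0.05, where 5.23% and 8.48% of all loci did. The falls were led by SHV2 (also COBL9), GL2, EXPA7 and MYB66 (also WER), of hair and epidermal cells. Differences lay below 0 for 9 of the 12 and above 0 for 3, namely PLT2 (0.17), CASP1 (0.03) and SHR (0.02). The 22 photosynthesis genes listed as markers of shoot tissue had medians of 15.36, 11.23 and 13.66 in OBP4 replicates 1 to 3, and 12.38, 11.88 and 13.27 in control replicates 1 to 3. None of the 22 passed limma's test at an adjusted p under 0.05, and 0 did at an unadjusted p under 0.05. Differences lay above 0 for 20 of the 22 and below 0 for 2, with a median of 0.87. The typical SD between arrays of a group was 1.25 for these genes. In whole roots, a lower signal through fewer cells of a type and through less RNA per cell cannot be told apart.

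Most LEA genes did not pass the test, and the 4 that did went in opposite directions. LEA7 and AT3G15670 rose about 8-fold in OBP4 roots, while AT5G60520 and its chromosomal neighbour AT5G60530 fell. In limma's fit of all 32627 loci, with p-values adjusted by Benjamini-Hochberg and called under 0.05, 2 members were higher and 2 lower, and 33 did not pass. Over all loci, 5.23% were higher and 8.48% lower, so the members' share of 5.41% in each direction is near the background for higher calls and below it for lower ones. Calls with a difference of at least 1 numbered 2 higher and 1 lower, where the background is 1.72% and 3.06% of all loci. The median difference of the members was -0.04 on the log2 scale, against 0.02 over all loci, and 16 members had a difference above 0 and 21 one below 0. Arrays of the groups did not overlap for 7 members with OBP4 higher and 4 with OBP4 lower, where the background is 18.0% and 18.9% of all loci. At an unadjusted p under 0.05 by limma stood 13 of the 37 members (35.1%), against 28.5% of all loci.

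**Figure D1:**
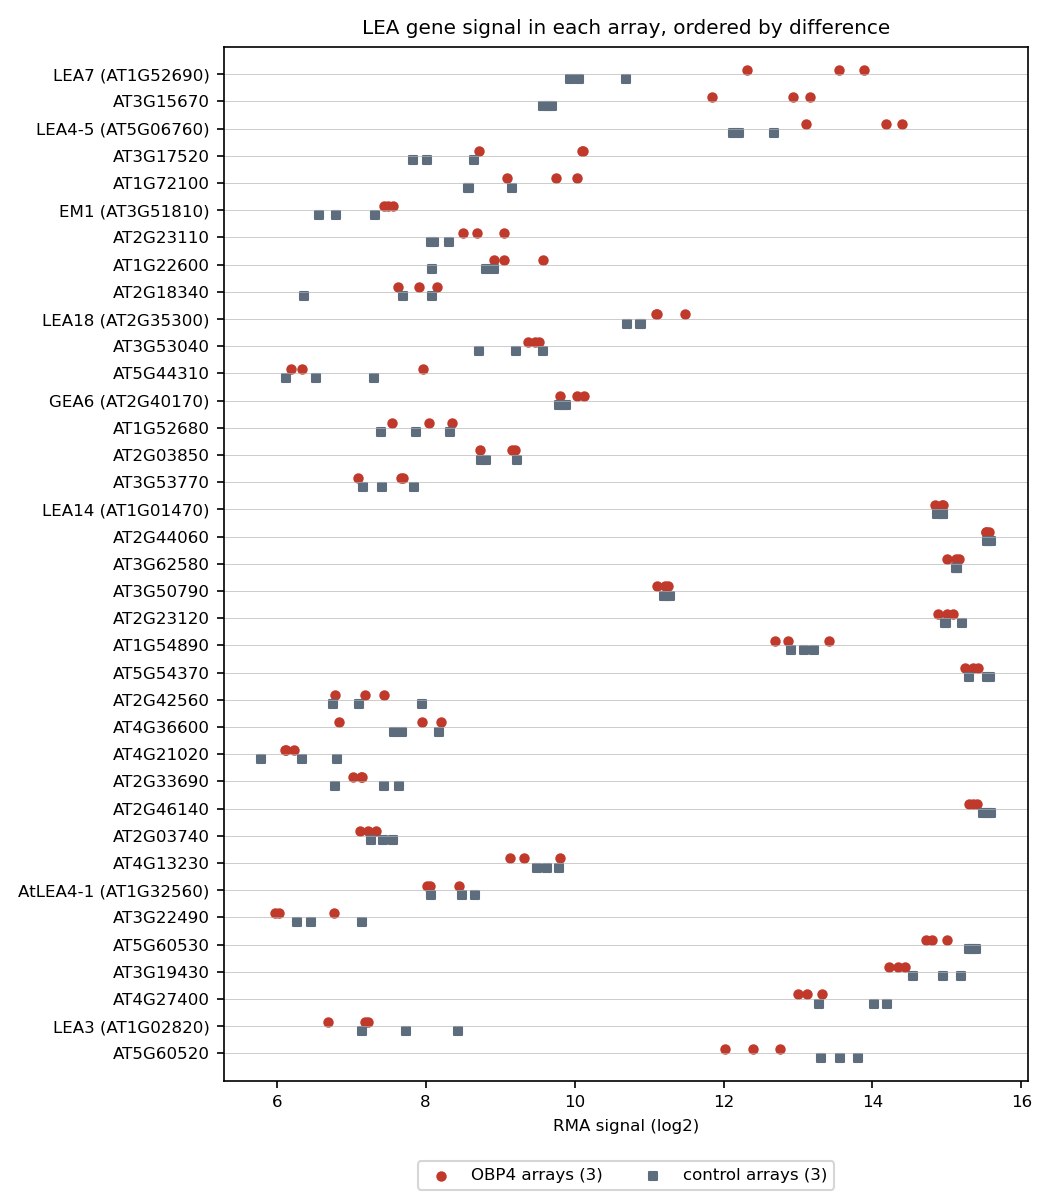
RMA signal (log2, x axis) of the 37 LEA genes in each array, with OBP4 arrays as red circles above control arrays as grey squares, ordered by the difference between group means. The OBP4 arrays of LEA7 and AT3G15670 at the top lie to the right of the control arrays with a wide gap, and those of AT5G60520 at the bottom lie to the left.

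The 2 genes that rose belong to the LEA_4 family, whose proteins carry a short repeated motif and are thought to fold into helices as water is lost. LEA7 (AT1G52690; chromosome 1, 19619745 to 19620844, forward strand, as the array annotation places it) read 13.55, 13.89 and 12.32 in OBP4 replicates 1 to 3, against 10.69, 9.94 and 10.06 in control replicates 1 to 3. Every OBP4 array was above every control array. On the log2 scale LEA7 differed by 3.02 ± 0.46 (SE), which is 8.12-fold, with a 95% interval of 1.88 to 4.16 and limma's adjusted p = 0.0124. Leaving out control replicate 3 gave adjusted p = 0.0548, and the 5 other fits that leave out an array passed.

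AT3G15670 (also LEA29, chromosome 3, 5309886 to 5310988, reverse strand) has no symbol in the reference used here. Its signal was 12.94, 13.16 and 11.85 in OBP4 replicates 1 to 3, against 9.64, 9.57 and 9.70 in control replicates 1 to 3. The control arrays lay close together (SD 0.06) and the OBP4 arrays did not (SD 0.70), yet the groups stayed more than 2 log2 units apart. The difference was 3.01 ± 0.35 (SE), or 8.08-fold, with adjusted p = 0.00525 by limma, and all 6 fits that leave out an array passed. The probe sequences were not used here, so it was not examined whether the related LEA7 and AT3G15670 share hybridization.

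A second pair of genes showed the same division of the arrays without passing the test. LEA4-5 (AT5G06760), of the LEA_1 family and known to protect enzymes during partial drying, read 14.19, 14.40 and 13.11 in OBP4 roots, against 12.67, 12.20 and 12.13 in control roots. The difference was 1.56 ± 0.38 (SE), with a 95% interval of 0.62 to 2.50 and limma's adjusted p = 0.0515. AT3G17520, of the LEA_4 family, read 10.12, 10.10 and 8.72 in OBP4 roots, against 7.83, 8.65 and 8.02 in control roots, a difference of 1.48 ± 0.45 (SE) with adjusted p = 0.0980. In both genes the groups did not overlap. Without OBP4 replicate 3, LEA4-5 differed by 1.96 and AT3G17520 by 1.94, with limma's adjusted p of 0.0124 and 0.0252. Neither passed in any other fit that left out an array, where limma's adjusted p reached 0.147 and 0.236. With a variance trend and robust fit of all arrays both passed, at 0.0427 and 0.0329.

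OBP4 replicate 3 was the lowest of the OBP4 arrays in all 4 members that differed by 1 or more upwards: LEA7, AT3G15670, LEA4-5 and AT3G17520. Among the 7 members with OBP4 higher and no overlap, it was the lowest in 6, and among the 5871 such loci of the whole array it was the lowest in 31.5%. The photosynthesis median was highest in OBP4 replicate 1 and lowest in OBP4 replicate 2, the array with the highest signal of LEA7, AT3G15670 and LEA4-5. With the photosynthesis median of each array as a covariate, a fit chosen after seeing the data, 2 members were higher and 2 lower. The share of all loci called in that fit was not counted, and the part of shoot tissue in these results was not tested.

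**Figure D2:**
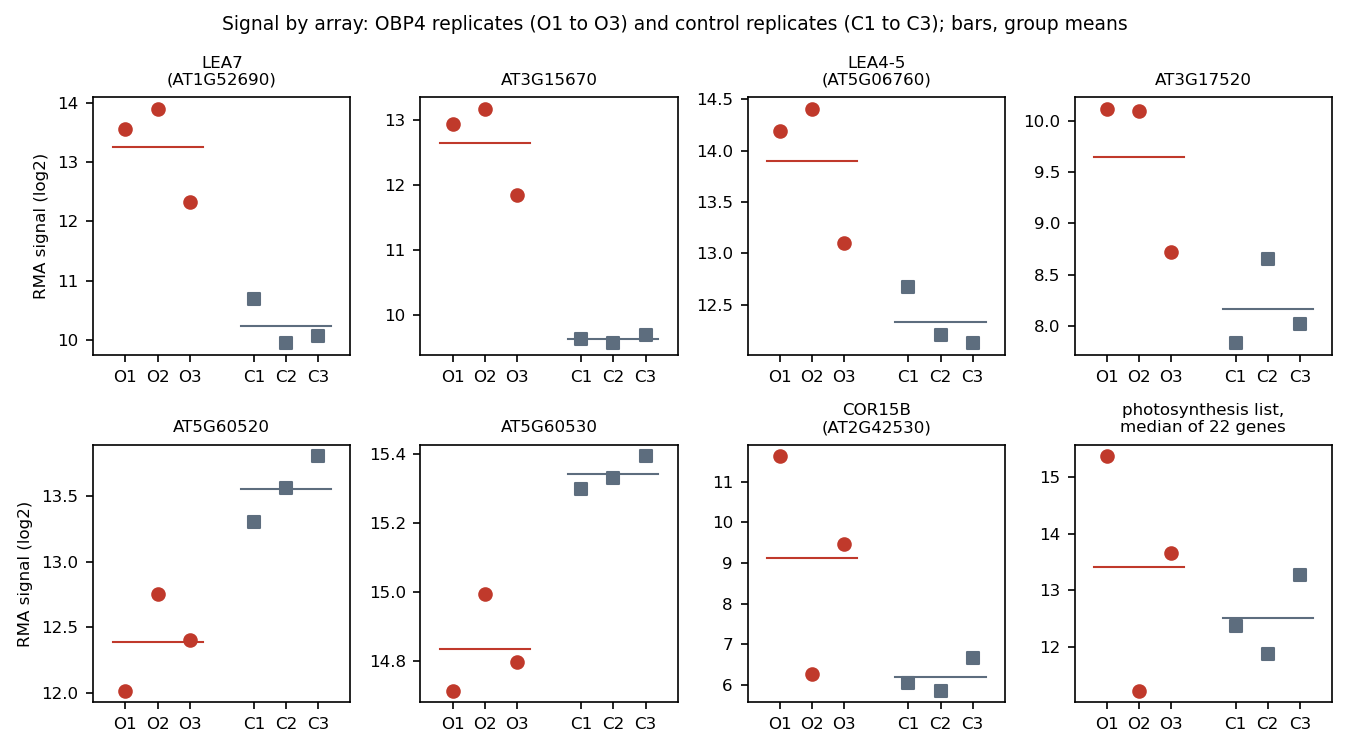
RMA signal (log2) in OBP4 replicates 1 to 3 (O1 to O3, red) and control replicates 1 to 3 (C1 to C3, grey), with bars at the group means, for 6 LEA genes, for COR15B and for the median of 22 photosynthesis genes, each panel with a y axis of its own. The 4 genes of the upper row share a low O3, while COR15B and the photosynthesis median share a high O1 and a low O2.

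Of the remaining LEA_4 members none passed the test. The family has 14 members, of which 2 rose and 0 fell, where 5.23% and 8.48% of all loci did, and their median difference was 0.14. By limma, 4 of the 14 had an unadjusted p under 0.05 (28.6%), against 28.5% of all loci. AT1G72100 read 9.75, 10.03 and 9.09 in OBP4 roots, against 8.58, 8.57 and 9.16 in control roots, and the groups overlapped. Its difference was 0.85 ± 0.30 (SE), with adjusted p = 0.131 by limma. The other members of this family, AT2G42560, AT4G21020, AT2G33690 and AT5G44310 among them, lay between -0.22 and 0.51. Of the 14, 7 were dim, with a mean under 8. AT5G44310, for example, read 6.34, 7.96 and 6.20 in OBP4 roots, against 7.31, 6.13 and 6.53 in control roots, and its 2 gene models differed by 0.01 and 0.35 between the groups.

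The Em genes, classical transcripts of the dry seed that ABI5 activates, did not pass. EM1 (AT3G51810) read 7.44, 7.56 and 7.50 in OBP4 roots, against 6.57, 7.32 and 6.80 in control roots. The groups did not overlap, but the difference of 0.60 ± 0.20 (SE) had adjusted p = 0.115 by limma, and 0.0175 without control replicate 2. No other fit that left out an array passed, with limma's adjusted p up to 0.253. GEA6 (also EM6, AT2G40170) differed by 0.15, with a 95% interval of -0.10 to 0.40. LEA18 (AT2G35300), of the LEA_1 family, differed by 0.40 with no overlap of the arrays and adjusted p = 0.116, and AtLEA4-1 (AT1G32560) of the same family by -0.23.

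Bright LEA genes of the LEA_2 family, whose proteins unlike most LEA proteins have a stable fold, differed little. LEA14 (AT1G01470) read 14.94, 14.84 and 14.94 in OBP4 roots, against 14.95, 14.95 and 14.87 in control roots. The groups overlapped, and the 95% interval of the difference was -0.18 to 0.15. AT2G44060 (also LEA26) averaged 15.54 in OBP4 roots and 15.56 in control roots, near the top of the scale where differences are compressed, with an interval of -0.17 to 0.12. AT2G46140 (also LEA27) read 15.35, 15.40 and 15.30 in OBP4 roots, against 15.48, 15.60 and 15.54 in control roots, without overlap, and differed by -0.19 with adjusted p = 0.134 by limma. It passed with a variance trend and robust fit (0.0162) and without the dimmest 50% of loci (0.0429).

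Genes annotated as LEA protein-related were lower or did not pass. Of these 8 genes, 0 rose and 2 fell, where 5.23% and 8.48% of all loci did. By limma, 4 of the 8 had an unadjusted p under 0.05, against 28.5% of all loci, and 6 had a difference below 0, with a median of -0.32. AT5G60520 (chromosome 5, 24331670 to 24333045, reverse strand) read 12.02, 12.75 and 12.40 in OBP4 roots, against 13.31, 13.57 and 13.81 in control roots. The groups did not overlap, and the log2 signal fell by 1.17 ± 0.23 (SE). That is 2.25-fold lower, and limma's adjusted p was 0.0272. Epidermal root markers fell in the same arrays, and their part in this result was not tested.

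Its neighbour AT5G60530 (24333907 to 24335782, reverse strand) lies 861 bases away on the same strand. It read 14.72, 15.00 and 14.80 in OBP4 roots, against 15.30, 15.33 and 15.39 in control roots, again with no overlap. It fell by 0.50 ± 0.09 (SE), where limma gave adjusted p = 0.0232. When arrays were left out in turn, both genes stayed under the threshold only without OBP4 replicate 2. Adjusted p in the other 5 fits was 0.0525 to 0.0884 for AT5G60520 and 0.0572 to 0.0879 for AT5G60530. AT5G60520 overlaps the gene cPT9 by 99 bases on the other strand, and the labelled cDNA was double-stranded, so probes in the overlap would not tell the strands apart; cPT9 differed by 0.46 with adjusted p = 0.495.

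None of the further LEA protein-related genes passed, and most of them lay on the same side. AT3G19430 read 14.44, 14.35 and 14.22 in OBP4 roots, against 14.55, 14.94 and 15.18 in control roots, with no overlap, and differed by -0.55 ± 0.18 (SE) with adjusted p = 0.107 by limma. AT4G27400 read 13.12, 13.32 and 13.01 in OBP4 roots, against 13.28, 14.02 and 14.20 in control roots. Its groups overlapped through control replicate 1, and its difference of -0.69 ± 0.26 (SE) had adjusted p = 0.153, or 0.0245 without that array. In the other fits that left out an array AT4G27400 did not pass, with limma's adjusted p up to 0.311. AT5G54370, AT1G54890 and AT3G53770 differed by -0.13, -0.08 and 0.01, and their groups overlapped. The 2 genes that hold the term only through their best match, AT1G22600 and AT3G62580, differed by 0.57 and -0.04, and AT3G50790, of no listed family, by -0.04, with limma's adjusted p of 0.262, 0.758 and 0.718.

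**Figure D3:**
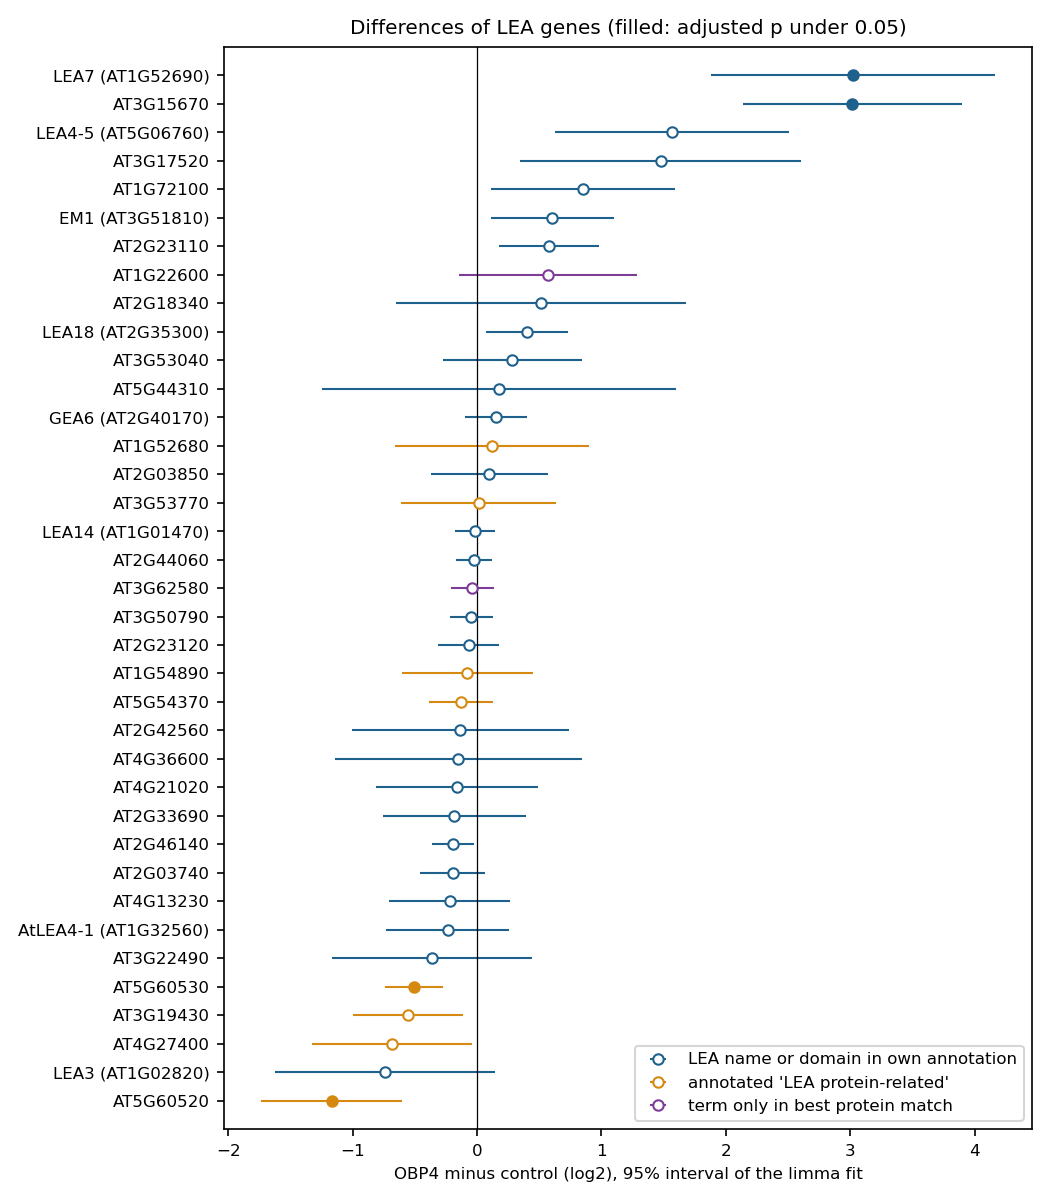
Difference of OBP4 minus control (log2, x axis) for the 37 LEA genes with the 95% interval of the limma fit, coloured by the wording of the annotation; filled points passed the adjusted threshold. The 2 filled points at the right are LEA7 and AT3G15670, and the 2 filled points at the left, AT5G60530 and AT5G60520, both carry the LEA protein-related wording.

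Neighbouring members did not always move together. AT1G52680, also annotated as LEA protein-related, lies 723 bases from LEA7 on the opposite strand and differed by 0.12 ± 0.31 (SE), with adjusted p = 0.839, where LEA7 differed by 3.02. Of the 2 genes of the PvLEA18 family, which lie on either side of a single other locus, AT2G23110 differed by 0.58 and AT2G23120 by -0.07, with adjusted p of 0.0771 and 0.696 by limma. The difference between the genes of a pair was not tested.

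Signal strength bounded what could be seen. By mean over all arrays, 12 members were under 8 on the log2 scale, 13 between 8 and 12, and 12 at 12 or more. None of the 12 dim members passed limma's test, where among all 9769 loci under 8 the share called was 1.80% higher and 2.07% lower. At an unadjusted p under 0.05 stood 1 of the 12, against 15.7% of those loci. Of the 13 members in the middle class, 2 rose and 0 fell, where among all 7578 loci of that class the share called was 6.95% higher and 13.3% lower. Of the 12 bright members, 0 rose and 2 fell, where among all 15280 loci at 12 or more the share called was 6.56% higher and 10.2% lower. At an unadjusted p under 0.05 by limma stood 6 of the 12, against 32.7% of those loci. The second deposited table, which does not follow the arrays, gave 0 higher and 1 lower member by limma, against 3.17% and 2.38% of all loci. The typical SD between arrays of a group was 0.31 for the members and 0.16 for all loci. LEA3 (AT1G02820), the dim member with the lowest difference, read 7.23, 6.69 and 7.19 in OBP4 roots, against 7.15, 8.43 and 7.74 in control roots, a difference of -0.74 with a 95% interval of -1.62 to 0.14. AT3G22490, of the seed maturation protein family, differed by -0.36 with an interval of -1.17 to 0.44.

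**Figure D4:**
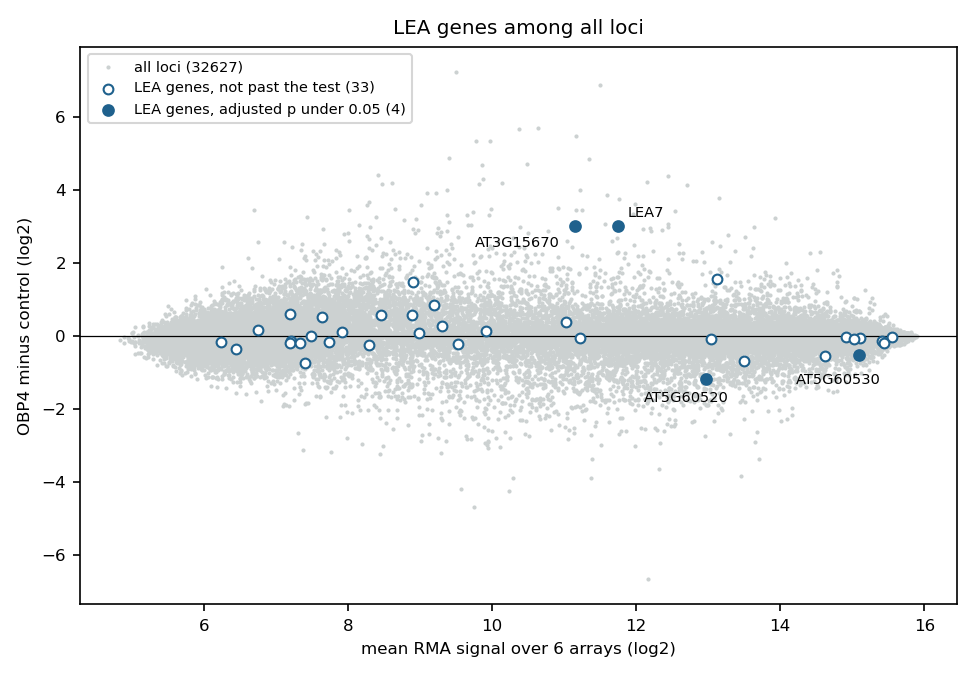
Difference of OBP4 minus control (log2, y axis) against the mean signal of 6 arrays (log2, x axis) for all 32627 loci (grey) and the 37 LEA genes (blue, filled where the adjusted p is under 0.05). LEA7 and AT3G15670 stand at 3.02 and 3.01, and the other members lie between -1.17 and 1.56.

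LEA genes are also annotated under other names, and these were taken from a list of 51 genes in 9 families compiled for this work, of which 27 are members and 24 are not. Of the 24 non-members, 3 rose (12.5%), 1 fell (4.17%) and 20 did not pass, where 5.23% of all loci rose and 8.48% fell. AT3G02480, of the LEA_4 family, read 12.07, 12.32 and 12.02 in OBP4 roots, against 10.83, 10.65 and 10.76 in control roots, and rose by 1.39 ± 0.11 (SE) with limma's adjusted p = 0.00145. ECP63 (AT2G36640), a LEA_4 gene of embryos, rose by 1.62 ± 0.35 with adjusted p = 0.0394, and AT4G38410, of the dehydrin family, by 1.48 ± 0.27 with adjusted p = 0.0213. AT5G53270, of the seed maturation protein family, fell by 1.14 with adjusted p = 0.0475. It was dim in both groups, with means of 5.98 in OBP4 roots and 7.12 in control roots.

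Over all 51 genes, 5 rose (9.8%) and 1 fell (1.96%), where 5.23% and 8.48% of all loci did. The median difference was 0.02, against 0.02 over all loci. Of the 19 LEA_4 genes, 4 rose (21.1%) and 0 fell, and of the 10 dehydrin genes, 1 rose (10%) and 0 fell. At an unadjusted p under 0.05 by limma stood 6 of the 19 LEA_4 genes (31.6%), against 28.5% of all loci. The following were named after their values were seen. RAB18 (AT5G66400), a dehydrin gene widely used as a readout of abscisic acid, read 11.57, 11.07 and 10.45 in OBP4 roots, against 11.44, 11.23 and 11.42 in control roots, and differed by -0.33 with a 95% interval of -1.05 to 0.39. The dehydrin genes COR47, ERD14 and LTI30 lay near the top of the scale and differed by 0.03, -0.03 and 0.03.

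COR15B (AT2G42530), a LEA_4 gene for a chloroplast protein induced by cold, read 11.63, 6.26 and 9.46 in OBP4 roots, against 6.04, 5.85 and 6.66 in control roots. Only OBP4 replicates 1 and 3 stood above the control arrays, and these were the OBP4 arrays with the higher photosynthesis medians. Control replicate 3 had a photosynthesis median of 13.27, against 13.66 in OBP4 replicate 3, and COR15B read 6.66 and 9.46 in these arrays. The COR15B difference of 2.93 ± 1.35 (SE) had adjusted p = 0.228 by limma. The part of shoot tissue in it was not tested.

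**Figure D5:**
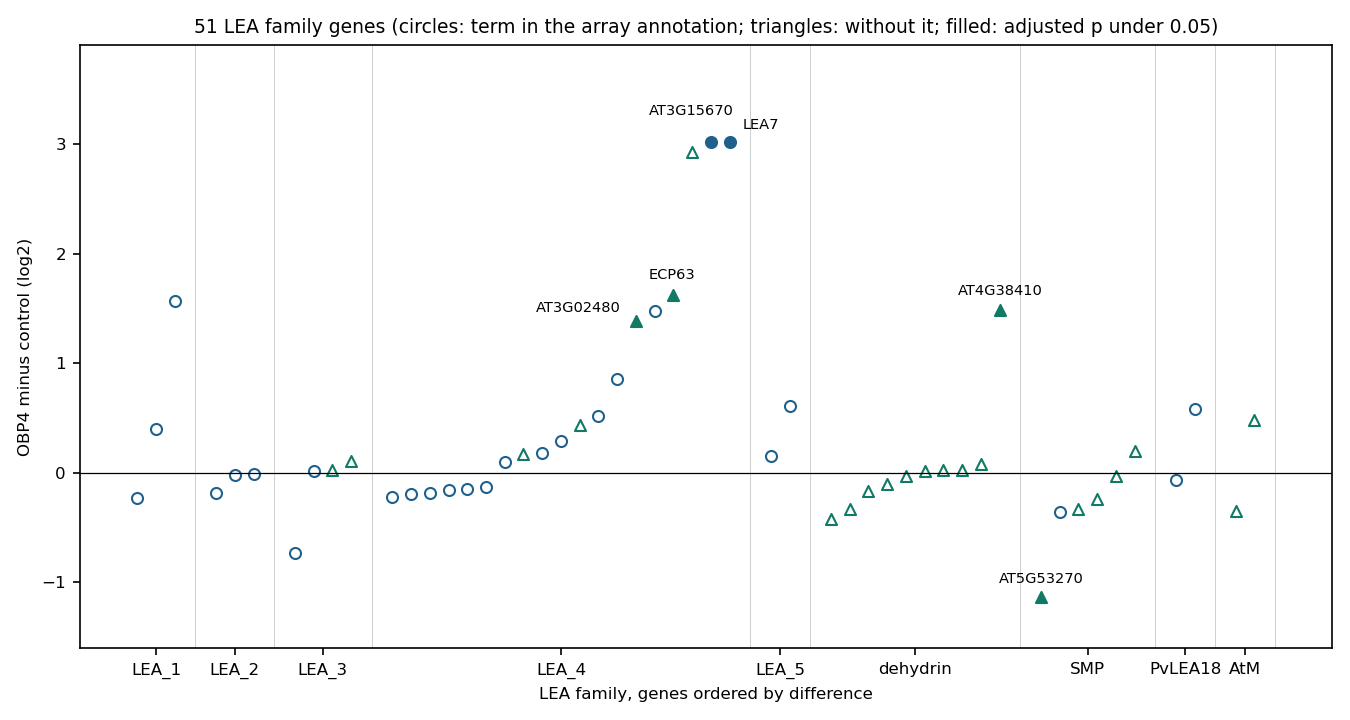
Difference of OBP4 minus control (log2, y axis) for 51 LEA genes in 9 families, ordered by difference within each family; circles are genes with the term in their array annotation, triangles are genes without it, and filled symbols passed the adjusted threshold. The filled symbols above 1 are 4 LEA_4 genes and 1 dehydrin gene, and the filled symbol below -1 is AT5G53270.

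Proteins related to NDR1 and HIN1 share the LEA_2 domain but are membrane proteins linked to defence and transport. Of 10 such genes, 3 rose and 2 fell, where 5.23% and 8.48% of all loci did. AT5G53730 (listed as NHL26) read 14.09, 14.23 and 14.45 in OBP4 roots, against 10.91, 10.76 and 10.80 in control roots, and rose by 3.43 ± 0.11 (SE) with limma's adjusted p = 3.86e-04. NHL25 rose by 1.18 and NHL2 by 0.39, while NDR1, a regulator of disease resistance, fell by 0.90 and YLS9 (also NHL10) by 0.65.

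Regulators of LEA genes in seeds ranged from low to high signal, and 9 of 17 listed genes had a mean under 8. Of the 17, 2 rose and 0 fell, where 5.23% and 8.48% of all loci did. Arrays did not overlap for 3 genes with OBP4 higher and 3 with OBP4 lower, where the background is 18.0% and 18.9% of all loci. The latter, BZIP25, BZIP53 and NF-YB6 (also L1L), did not pass and differed by -0.27, -0.24 and -0.32. ABI5, the bZIP factor of the abscisic acid response in seeds, read 11.88, 11.86 and 11.57 in OBP4 roots, against 11.16, 11.10 and 11.25 in control roots, and rose by 0.60 ± 0.11 (SE) with limma's adjusted p = 0.0214. EEL, a bZIP factor related to ABI5, rose by 0.59 with adjusted p = 0.00598. ABI3, LEC1, LEC2 and FUS3, chosen after their values were seen, had group means under 8 and differed by 0.05, 0.17, -0.32 and 0.03, with adjusted p of 0.938, 0.358, 0.474 and 0.894.

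Of 10 ABF and DREB genes, which encode factors that act on LEA genes under drought and cold, 2 rose and 0 fell. Over all loci, 5.23% rose and 8.48% fell. DREB2B rose 2.46-fold and CBF1 2.85-fold, with limma's adjusted p of 5.33e-04 and 0.0127. CBF2 and DREB1A (also CBF3) differed by -0.61 and 0.04 on the log2 scale and did not pass. The bZIP genes ABF1 to ABF4 did not pass. ABF1, ABF2, ABF3 and ABF4 differed by -0.21, 0.06, 0.19 and -0.15.

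Of 20 other genes of the response to drought and abscisic acid, 7 rose and 0 fell, where 5.23% and 8.48% of all loci did. Their median difference was 0.50, against 0.02 over all loci. Arrays did not overlap for 11 genes with OBP4 higher and 3 with OBP4 lower, where the background is 18.0% and 18.9% of all loci. The latter, NAC3 (also NAC055), RD26 and ERD7, did not pass and differed by -0.52, -0.26 and -0.17. GolS2, an enzyme gene of galactinol synthesis, rose by 2.33, NAC019 by 2.21, NCED3, of abscisic acid synthesis, by 1.19, and AFP1, which binds ABI5, by 0.997. GolS2 read 9.17, 9.18 and 8.00 in OBP4 roots, against 6.70, 6.16 and 6.49 in control roots, so that OBP4 replicate 3 was again the lowest of the OBP4 arrays.

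Seed storage and oil body genes, listed as markers of seed tissue and of the seed programme, stayed near the bottom of the scale. Of 15 genes, 13 had a mean under 8, and 0 rose and 2 fell, where 5.23% and 8.48% of all loci did. At an unadjusted p under 0.05 by limma stood 3 of the 15, against 28.5% of all loci. The albumin genes SESA4 and SESA2 fell by 1.38 and 0.59, with adjusted p of 0.00344 and 0.0201. SESA5, also an albumin gene, lay higher in OBP4 roots by 1.13 with no overlap of the arrays, and limma's adjusted p was 0.159. Over the list, 4 genes had a difference above 0 and 11 one below 0. The median of the list was 7.78, 7.09 and 7.04 in OBP4 replicates 1 to 3, and 6.85, 7.48 and 7.64 in control replicates 1 to 3.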

How the data were processed

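Per the labels' protocols, root RNA was copied to double-stranded cDNA, labelled with Cy3 and hybridized to 1-colour NimbleGen arrays, 3 per group. The authors deposited 1 table per array with log2 values for 37118 gene models, processed with RMA per the deposited tables' own names; the sources used here name no software or settings. A second deposited table of log2 values, with normalization not stated, served as an alternative. Rows of a locus were averaged. Symbols came from the TAIR10.1 table of NCBI; positions follow the array annotation, which names no build. No filter was applied.

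The comparison used limma 3.58.1 in R 4.3.3 (lmFit, then eBayes; two-sided tests). P-values of the 32627 loci were adjusted by Benjamini-Hochberg and called under 0.05, and intervals are unadjusted. The fit was tested on simulated data. Arrays have no depth; their number limits the precision. All 6 arrays held different values. Same-numbered replicates did not deviate together (correlations of -0.20, 0.09 and -0.17), so the fit has no block. Figures were drawn with matplotlib 3.10.9.

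The members, the 16 gene lists and the families were chosen with earlier results of these data known. Genes named are all members past the threshold, LEA7, the 6 with the highest and the 6 with the lowest mean, the 6 with the largest difference short of the threshold, and up to 4 genes past the threshold per list and direction; other genes were named after their values were seen. The alternatives are given in the closing section.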

Additional observations from a re-analysis of the deposited data

Results flagged for a closer look

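A signal lay in the second deposited table, on which no result above rests: under its labels, AT3G53040, a LEA_4 member, was lower in OBP4 roots by 1.57 on the log2 scale. The difference there was -1.57 ± 0.12 (SE), with limma's adjusted p = 0.00266, from values of 8.18, 7.91 and 7.85 in its OBP4 columns and 9.53, 9.46 and 9.66 in its control columns. In the arrays the same gene read 9.52, 9.37 and 9.47 in OBP4 roots, against 9.21, 8.72 and 9.57 in control roots, a difference of 0.29 with adjusted p = 0.462. The OBP4 transcript differed by 0.0067 there. LEA7 read 11.93, 13.99 and 13.67 in its OBP4 columns and 12.83, 13.66 and 14.19 in its control columns, so the groups overlapped.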

How the results depend on the processing

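Of the 37 members, 0 are annotated as hydroxyproline-rich, so the planned fit without such genes was not run. The counts of 2 higher and 2 lower members were the same under quantile normalization, cyclic loess, array weights, the brightest row per locus and the photosynthesis covariate, which was chosen after seeing the data. They were 3 and 2 after centring each array, and 3 and 2 of the 30 members left without the dimmest 25% of loci. They were 0 and 1 in the second table, 4 and 4 with a variance trend and robust fit, and 1 and 0 at adjusted p under 0.01. Lower members numbered 4 without the dimmest 50% of loci, where 13 members were left and AT3G15670 was not among them. They numbered 1 at a difference of at least 1. They numbered 0 with the replicate number as a block (a replicate block, though the numbers do not pair the arrays) or without the LEA protein-related genes. The 51-gene family list in place of the rule gave 5 and 1; these last 2 definitions were also chosen after seeing the data. Without 1 array, 1 to 4 members were higher (1 without control replicate 3, 4 without OBP4 replicate 3), 0 to 2 lower (0 without OBP4 replicate 1 or 3 or control replicate 2 or 3), and the median was -0.06 to -0.01. It was -0.11 in the second table, where OBP4 differed by 0.0067. Without 1 array OBP4 differed by 1.18 to 1.39. Apart from the second table, the share of all loci called was not counted in the refits. Their counts of members therefore have no background beside them.

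In the second table the sign turned for 24 of the 37 members: LEA7 (-0.36), AT3G15670 (-0.62), AT3G17520 (-0.14), AT1G72100 (-0.42), EM1 (-0.05), AT5G44310 (-0.25), AT2G44060 (0.018), AT2G46140 (0.073), AT3G62580 (0.28), AT2G23120 (0.20), AT3G22490 (0.037), LEA3 (0.22), LEA14 (0.26), GEA6 (-0.47), LEA18 (-0.013), AtLEA4-1 (0.090), AT1G22600 (-0.31), AT1G54890 (0.64), AT2G23110 (-0.10), AT3G53770 (-0.76), AT4G13230 (0.46), AT2G03740 (0.22), AT2G18340 (-0.19) and AT3G53040 (-1.57). Among the members named by the rule, centring each array turned AT2G44060 (0.00095), and leaving out 1 array turned the sign for AT3G62580 (-0.072 to 0.0080), AT2G23120 (-0.12 to 0.0046), AT2G42560 (-0.39 to 0.21), AT5G44310 (-0.38 to 0.51) and AT4G21020 (-0.42 to 0.092). LEA4-5 passed after centring (adjusted p = 0.0478), with the variance trend and robust fit (0.0427) and without the dimmest 25% (0.0351) or 50% (0.0152) of loci. It did not pass with array weights (0.0672) or the replicate block (0.0818). The cause was not tested.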
